A study of Mus musculus with 18 samples.

Results

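The genes described here carry glucose and fructose across the membranes of gut and liver cells and add the phosphate that holds the sugars inside. They are the 6 genes Slc5a1, Slc2a2, Slc2a5, Khk, Gckr and Hk2, chosen by symbol from the platform annotation. Each was represented by exactly 1 probe set, so 6 of the 41345 probe sets of the array and 6 of its 22180 singly named genes are the subject. Slc5a1, Slc2a2 and Slc2a5 are transporters, Khk and Hk2 are kinases, and Gckr restrains a kinase.

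The samples came from mice raised germ-free, genotype C57BL\6, that were given gut microbiota at an age of 5 to 6 weeks and kept for 8 weeks. OMT recipients were given microbiota of old donors, 2 years (about 24 months) of age, and YMT recipients that of young donors, whose age the labels give as 4 weeks in one place and as 5 to 6 weeks in another. All recipients of both groups had been germ-free, and no group that stayed germ-free or that kept a microbiota of its own was analysed here. Age at sampling is given as 12 or as 13 weeks. Small intestine and liver each contributed 5 OMT and 4 YMT arrays, 18 in all. The titles call the samples biological replicates, but the number of donors and cages and the segment of small intestine were not given in the sources used here. A shared donor or cage therefore cannot be told apart from the age of the donor. The comparison asks what donor age does to metabolism in gut and liver of the recipients, as the labels state its purpose.

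Dietary glucose enters the absorptive cell from the gut lumen with sodium through SGLT1, the product of Slc5a1. Fructose enters through GLUT5, the product of Slc2a5, and both sugars can leave toward the blood through GLUT2, the product of Slc2a2, which is also the main glucose carrier of the hepatocyte membrane. Ketohexokinase, encoded by Khk, turns fructose into fructose 1-phosphate in gut and liver, while hexokinases turn glucose into glucose 6-phosphate. The protein of Gckr is a regulator that restrains glucose phosphorylation in the hepatocyte. Hk2 encodes an inducible hexokinase of high glucose affinity, best known from muscle, fat and growing cells.

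Values are levels on the log2 scale of the array. A difference is the OMT mean less the YMT mean, followed after ± by its standard error (SE). A difference of 1 is a factor of 2. Genes were tested in a tissue where 4 or more of the 9 arrays had them above the array median. The adjusted p is limma's, corrected by the Benjamini-Hochberg method across every gene of that tissue's test, and a call needs an adjusted p under 0.05. Levels of different probe sets are not compared with each other. In whole tissue, fewer cells of a type and less RNA per cell cannot be told apart.

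The tissue labels held on all 18 arrays. The mean over 8 hepatocyte markers was 11.95 to 12.05 on liver arrays and 6.78 to 7.51 on intestine arrays, and the mean over 9 enterocyte markers was 11.43 to 12.33 on intestine arrays and 6.62 to 7.00 on liver arrays. Within a tissue, 0 of the 8 hepatocyte markers in liver and 0 of the 9 enterocyte markers in intestine passed the limma threshold between OMT and YMT, and 2 and 3 had an unadjusted p under 0.05. A few arrays stood apart. Intestine YMT replicate 1 had the lowest level of the 4 markers of jejunum and duodenum, 6.07, while the other intestine arrays had 7.44 to 8.56. Intestine OMT replicates 1 and 2 had the highest mean level over 97 snoRNA probe sets, 7.31 and 6.93, against 6.11 to 6.49 on the YMT arrays. Liver OMT replicates 1 and 2 differed from the other OMT livers for some sugar-responsive genes named below. Results that rest on these arrays are given with and without them.

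Of the 6 genes, 5 were tested in each tissue. In the small intestine, Hk2 was lower in OMT than in YMT recipients (1 of 5 tested), where 3.1% of all 13238 genes tested were called lower and 1.04% higher. In the liver, Khk and Slc2a2 were lower (2 of 5 tested), where 8.78% of all 13380 genes tested were called lower and 10.4% higher. The split of calls in liver depended on the scaling, with 1388 higher and 1175 lower on the deposited values and 1156 higher and 1492 lower after quantile normalization within the tissue. The remaining transporter and kinase comparisons did not pass the threshold, and their intervals are given below. The median difference of the tested members was -0.13 in intestine and -0.27 in liver, beside -0.02 and -0.005 over all genes tested. Each member median is the value of a gene that did not pass, Slc5a1 in intestine and Slc2a5 in liver. Both of these differences turned positive without OMT replicates 1 and 2.

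The regions just before the start sites of Khk and Slc2a2, which both fell in the OMT liver, and of Hk2, which fell in the OMT intestine, are shown because the results turn on these genes. Each is the stretch of 250 bases before the RefSeq transcription start, read 5′ to 3′ on the gene's strand, build GRCm38.p6. The Khk stretch is at chr5:30921309-30921558 on the plus strand, that of Slc2a2 at chr3:28697653-28697902 on the plus strand, and that of Hk2 at chr6:82774455-82774704 on the minus strand. Capitals mark the E-box letters CACGTG, the core of many basic helix-loop-helix binding sites. They also mark a half-site of hepatocyte nuclear factor 1, with the letters GTTAAT.
Khk: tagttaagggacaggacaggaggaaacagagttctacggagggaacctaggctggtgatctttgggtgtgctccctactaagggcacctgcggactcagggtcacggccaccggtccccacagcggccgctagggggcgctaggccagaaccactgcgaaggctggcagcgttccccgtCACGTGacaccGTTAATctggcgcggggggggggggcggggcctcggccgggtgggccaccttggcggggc
Slc2a2: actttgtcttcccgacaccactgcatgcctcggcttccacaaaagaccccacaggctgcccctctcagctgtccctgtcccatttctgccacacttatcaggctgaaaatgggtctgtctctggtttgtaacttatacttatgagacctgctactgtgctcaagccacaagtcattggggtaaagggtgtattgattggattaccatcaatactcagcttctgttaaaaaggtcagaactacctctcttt
Hk2: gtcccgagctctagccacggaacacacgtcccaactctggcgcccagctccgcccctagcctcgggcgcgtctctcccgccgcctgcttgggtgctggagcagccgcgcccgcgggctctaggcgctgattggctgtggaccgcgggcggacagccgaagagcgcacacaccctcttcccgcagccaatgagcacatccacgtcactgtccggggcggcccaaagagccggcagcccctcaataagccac
The E-box begins 71 bases before the Khk start and the half-site begins 60 bases before it, so the motifs lie next to each other without overlapping. The TATA box letters TATAAA were searched too, and all 3 motifs were looked for on both strands. Of 32851 promoter stretches of the same length, 6.02% held the E-box on either strand. The share was 6.43% for the half-site and 12.4% for the TATA box letters. Among the other members, Slc5a1 had the E-box at 143 bases before its start and Gckr had the half-site at 59 bases. No match to any of the 3 motifs was present in the windows of Slc2a2, Slc2a5 and Hk2. These are matches of letters within a window only.

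**Figure D1:**
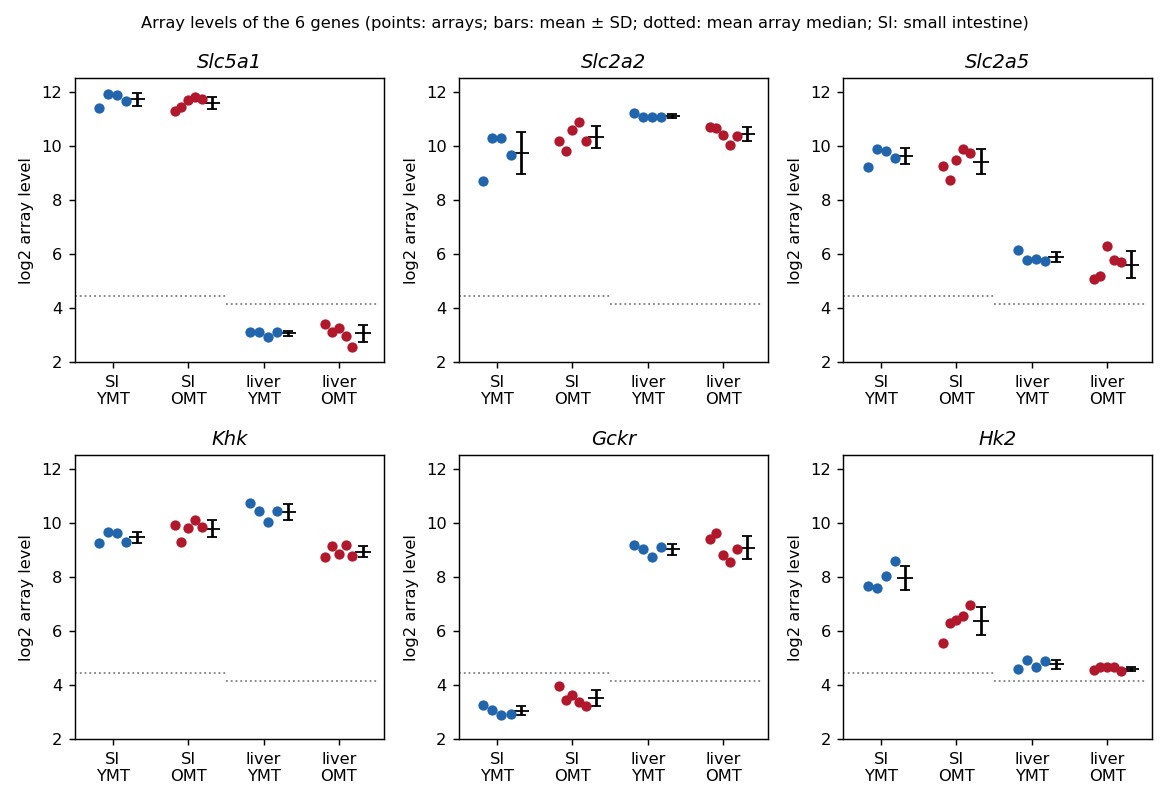
Log2 array level of each of the 6 genes on every array, with small intestine (SI) and liver side by side (points, arrays; bars, mean ± SD over 4 YMT or 5 OMT arrays; dotted lines, mean array median of the tissue). The OMT livers lie below all YMT livers for Khk and Slc2a2 and the OMT intestines lie below all YMT intestines for Hk2, while Slc5a1 in liver and Gckr in intestine lie below the array medians.

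The transporter of the apical membrane for glucose, Slc5a1 (probe set 17436407), was high in both groups of intestines. Its levels on the OMT arrays were 11.31, 11.43, 11.69, 11.81 and 11.74, and on the YMT arrays 11.42, 11.94, 11.90 and 11.65. The ranges overlapped, and the difference was -0.13 ± 0.14 (95% interval -0.44 to 0.17, adjusted p = 0.601). The interval leaves room for a change of up to 0.44 downward on the log2 scale. Without OMT replicates 1 and 2 the difference was 0.02, so its sign rests on those arrays. In liver the probe set lay at 2.57 to 3.41 in OMT and 2.93 to 3.14 in YMT, below the array medians of 4.12 to 4.22, and was not tested there. An exact permutation test over the liver arrays gave p = 0.984 for a difference of 0.002.

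The fructose carrier Slc2a5 (probe set 17421875) gave intestine levels of 9.25, 8.73, 9.50, 9.88 and 9.75 in OMT and 9.24, 9.90, 9.82 and 9.54 in YMT. The lowest value was that of OMT replicate 2, and the groups overlapped. The difference was -0.20 ± 0.23 (95% interval -0.71 to 0.30, adjusted p = 0.627). Without OMT replicates 1 and 2 it was 0.09. In liver, where Slc2a5 was above the array medians on all arrays, the levels were 5.07, 5.20, 6.32, 5.80 and 5.70 in OMT and 6.15, 5.80, 5.83 and 5.76 in YMT. OMT replicates 1 and 2 had the lowest liver values and OMT replicate 3 the highest. The liver difference was -0.27 ± 0.22 (95% interval -0.76 to 0.22, adjusted p = 0.445), and without OMT replicates 1 and 2 it was 0.06.

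Slc2a2 (probe set 17396479), the carrier that hepatocytes and absorptive cells share, fell in the OMT liver. The OMT livers had levels of 10.70, 10.66, 10.42, 10.04 and 10.37, and the YMT livers had 11.23, 11.07, 11.08 and 11.06. Every OMT liver was below every YMT liver, as for 8.51% of all genes tested in liver. The group means were 10.44 ± 0.27 (SD, n = 5) and 11.11 ± 0.08 (SD, n = 4), a difference of -0.67 ± 0.13, 1.59-fold lower (95% interval -0.95 to -0.40, adjusted p = 0.00403). The 4 YMT livers lay within a narrow band, and the OMT livers spread more widely. When the intestine arrays were added to the fit, which then shares 1 estimate of spread, the difference was the same and the adjusted p was 0.0780, so the call was lost. Without OMT replicates 1 and 2, which had the highest OMT levels, the difference was -0.83 (adjusted p = 0.00116). Leaving out the OMT arrays nearest to YMT widens the difference by construction.

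In the small intestine Slc2a2 did not pass the test. The OMT levels were 10.19, 9.83, 10.58, 10.89 and 10.20 and the YMT levels 8.69, 10.30, 10.31 and 9.67. YMT replicate 1 stood 0.98 below the next lowest YMT array. The difference was 0.60 ± 0.33 (95% interval -0.14 to 1.33, adjusted p = 0.307). YMT replicate 1 was also the array with the lowest level of the jejunum and duodenum markers Gata4, Fabp1, Lct and Cybrd1. The mean over these 4 was 8.52, 7.91, 8.39, 8.56 and 7.59 on the OMT arrays and 6.07, 7.84, 8.21 and 7.44 on the YMT arrays. Of the 4, 0 passed the limma threshold and 1 had an unadjusted p under 0.05. The mean over the 3 ileum markers was 9.59 to 10.77 in OMT and 10.10 to 11.35 in YMT, with 0 of 3 past either limit. The highest ileum mean was that of YMT replicate 1 (11.35) and the lowest that of OMT replicate 1 (9.59). Without YMT replicate 1 the Slc2a2 difference was 0.25 (adjusted p = 0.621). Whether the segment sampled had a part in the values of Slc2a2 or of the other genes in intestine was not tested.

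Khk (probe set 17435934), the kinase that commits fructose to breakdown, fell furthest of the members in the OMT liver. Its levels were 8.75, 9.15, 8.87, 9.17 and 8.78 in OMT livers and 10.75, 10.43, 10.04 and 10.45 in YMT livers. The highest OMT liver was 0.87 below the lowest YMT liver. The means were 8.94 ± 0.20 (SD, n = 5) and 10.42 ± 0.29 (SD, n = 4), a difference of -1.47 ± 0.14, 2.78-fold lower (95% interval -1.79 to -1.16, adjusted p = 8.74e-05). Across the alternatives tried, the Khk difference in liver ranged from -1.60 to -1.36 and kept its call in all 19.

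In the small intestine Khk had levels of 9.91, 9.31, 9.80, 10.13 and 9.84 in OMT and 9.27, 9.68, 9.62 and 9.31 in YMT. Of the OMT arrays, 4 lay above all YMT arrays, and OMT replicate 2 lay among the lowest. The difference was 0.33 ± 0.16 (95% interval -0.02 to 0.68, adjusted p = 0.245), which did not pass. Without OMT replicates 1 and 2 it was 0.45 (adjusted p = 0.154).

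Hk2 (probe set 17468018), the inducible hexokinase, fell in the OMT small intestine. Its levels were 5.55, 6.31, 6.42, 6.57 and 6.97 in OMT and 7.68, 7.59, 8.05 and 8.58 in YMT. All OMT arrays lay below all YMT arrays, as for 6.84% of all genes tested in intestine. The means were 6.36 ± 0.52 (SD, n = 5) and 7.98 ± 0.45 (SD, n = 4), a difference of -1.61 ± 0.28, 3.06-fold lower (95% interval -2.23 to -0.99, adjusted p = 0.0143). OMT replicate 1 had the lowest level. Without OMT replicates 1 and 2 the difference was -1.32 (adjusted p = 0.0460), and over all alternatives it ranged from -1.76 to -1.32 with every call kept.

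Some marker lists of other cell types also separated the OMT from the YMT intestines. The mean over the 6 T and NK cell markers Cd3e, Cd3g, Cd8a, Gzma, Gzmb and Nkg7 was 7.00 to 7.71 on the OMT arrays and 7.74 to 8.39 on the YMT arrays. Of the 6, Gzma (-0.96 ± 0.22) and Gzmb (-1.43 ± 0.27), granzymes of cytotoxic lymphocytes, fell. The other 4 did not pass the adjusted threshold, and all 6 had an unadjusted p under 0.05. The mean over 6 goblet cell markers was 11.16 to 11.62 in OMT and 11.71 to 11.91 in YMT, and 1 of the 6, Clca1, fell. Of the goblet cell markers, 4 had an unadjusted p under 0.05. The mean over 6 smooth muscle markers overlapped, at 5.09 to 5.93 in OMT and 5.22 to 5.77 in YMT, with 0 of 6 past the threshold by limma and 0 at an unadjusted p under 0.05. The part of these cell types in the Hk2 difference was not tested.

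**Figure D2:**
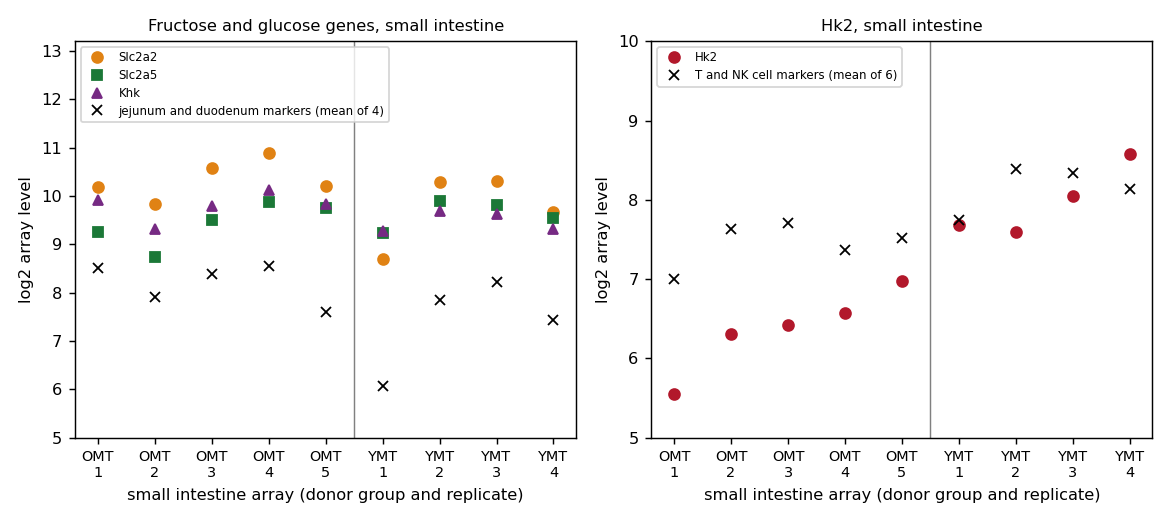
Log2 level on each of the 9 small intestine arrays (vertical line, border between 5 OMT and 4 YMT arrays): left, Slc2a2, Slc2a5, Khk and the mean of 4 jejunum and duodenum markers; right, Hk2 and the mean of 6 T and NK cell markers. YMT replicate 1 has the lowest Slc2a2 level (8.69) and the lowest marker mean (6.07), and Hk2 lies at 5.55 to 6.97 on OMT and 7.59 to 8.58 on YMT arrays.

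In liver Hk2 was only a little above the array medians of 4.12 to 4.22, at 4.55, 4.67, 4.66, 4.67 and 4.53 in OMT and 4.60, 4.95, 4.67 and 4.90 in YMT. The ranges overlapped, and the difference was -0.16 ± 0.09 (95% interval -0.36 to 0.03, adjusted p = 0.220). RMA narrows differences at such low levels.

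Gckr (probe set 17436107), the regulator of hepatic glucose phosphorylation, was well above the median in liver. Its levels there were 9.42, 9.62, 8.81, 8.56 and 9.04 in OMT and 9.19, 9.04, 8.76 and 9.10 in YMT. The OMT livers spread to both sides of the YMT livers, with OMT replicates 1 and 2 highest. The difference was 0.07 ± 0.20 (95% interval -0.37 to 0.50, adjusted p = 0.848), and it was -0.22 without OMT replicates 1 and 2.

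In intestine Gckr lay below the array medians of 4.39 to 4.51 on all arrays, at 3.96, 3.45, 3.63, 3.39 and 3.23 in OMT and 3.28, 3.10, 2.92 and 2.93 in YMT. An exact two-sided permutation test over these 9 arrays gave an unadjusted p = 0.0317 for the difference of 0.47. The smallest possible p was 0.0159. Corrected by Benjamini-Hochberg over the members below the filter, the permutation p was 0.0635, which did not pass. Fitted by limma with no filter on low values, the adjusted p was 0.135. A level below the array median does not show that the transcript was present.

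**Figure D3:**
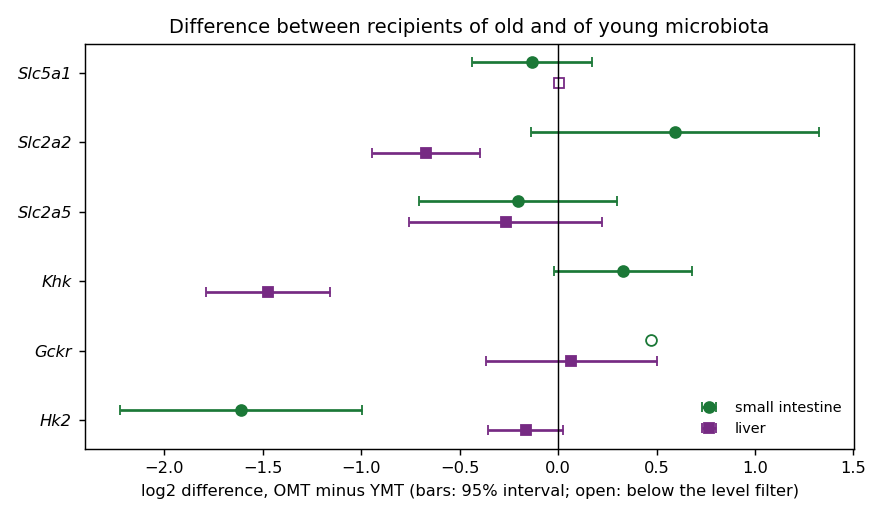
Difference in log2 level, OMT minus YMT, of the 6 genes in small intestine (circles) and liver (squares), with 95% intervals; open symbols without an interval are genes below the level filter. The interval lies wholly below 0 for Khk (-1.79 to -1.16) and Slc2a2 (-0.95 to -0.40) in liver and for Hk2 (-2.23 to -0.99) in intestine.

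In a limma contrast on all 18 arrays, liver and intestine differed in their response for 3 of the 4 members testable in both. Whether liver and intestine of the same replicate number came from the same mouse was not given in the sources used here. The contrast was the liver difference minus the intestine difference, and it took all arrays as independent. Of 11965 genes so tested, 4.04% had a lower and 7.91% a higher liver difference, in numbers 483 and 946. That split became 650 and 642 after quantile normalization within the tissue. For Khk the contrast was -1.80 ± 0.22 (95% interval -2.27 to -1.34, adjusted p = 4.56e-05). For Slc2a2 the contrast was -1.27 ± 0.37 (95% interval -2.04 to -0.50, adjusted p = 0.0315). This call was lost in 6 of the 18 fits that left out 1 array, with adjusted p up to 0.0609 without intestine YMT replicate 4. Without intestine YMT replicate 1 the contrast was -0.92 (adjusted p = 0.0405). For Hk2 the contrast was 1.45 ± 0.30 (95% interval 0.81 to 2.08, adjusted p = 0.00469), since the fall was found in intestine. For Slc2a5 it was -0.06 ± 0.33 (95% interval -0.76 to 0.64, adjusted p = 0.924), and its sign turned in some of the fits that left out 1 array. Slc5a1 and Gckr could not be tested, as each was below the level filter in 1 tissue.

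Ordered by mean level, Khk was highest in YMT liver (10.42), followed by OMT intestine (9.80), YMT intestine (9.47) and OMT liver (8.94). Among neighbours in that order, the ranges of YMT intestine and OMT liver did not overlap, and the others did. Slc2a2 was highest in YMT liver (11.11), then OMT liver (10.44), OMT intestine (10.34) and YMT intestine (9.74), and here the ranges of the neighbours overlapped except for the liver groups. Hk2 ran from YMT intestine (7.98) through OMT intestine (6.36) to YMT liver (4.78) and OMT liver (4.62), and the liver groups overlapped. Slc5a1 and Slc2a5 were higher in every intestine than in any liver, and Gckr was higher in every liver than in any intestine. Whether the tissues were normalized together is not stated, so the order across tissues is a description.

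The genes around the members were described by 7 lists that hold 79 genes, of which 66 carried a symbol of their own here. In intestine 62 were tested, of which 2 were higher and 2 lower in OMT, beside 1.04% and 3.1% of all genes tested. The 2 higher calls, G6pc and Glyctk, were both lost without OMT replicate 3 and without YMT replicate 1 or 4. In liver 53 were tested, of which 7 were higher and 10 lower, beside 10.4% and 8.78% of all genes tested. The median difference over the tested genes was 0.01 in intestine and -0.11 in liver. The other 13 listed genes were not analysed here.

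Among 7 listed genes of fructose metabolism after and beside Khk, 4 were tested in each tissue. In liver Tkfc, the triose kinase that acts on the glyceraldehyde made from fructose 1-phosphate, fell and Glyctk, a glycerate kinase, rose. Tkfc was at 8.74, 8.83, 9.35, 9.11 and 9.11 in OMT livers and 10.59, 10.46, 10.14 and 10.36 in YMT livers, a difference of -1.36 ± 0.13 (adjusted p = 8.74e-05). As for Khk, no OMT liver reached the lowest YMT liver. Glyctk rose by 0.73 ± 0.09 (adjusted p = 0.000360). In intestine Glyctk rose by 0.61 ± 0.12 (adjusted p = 0.0259), and that call was lost without OMT replicate 3, without YMT replicate 1, 3 or 4 and without OMT replicates 1 and 2 together (0.65, adjusted p = 0.0796). Tkfc in intestine differed by 0.42 ± 0.18 (adjusted p = 0.201) and passed at 0.58 (adjusted p = 0.0429) without OMT replicate 2 and at 0.63 (adjusted p = 0.0436) without OMT replicates 1 and 2. OMT replicate 2 had the lowest Tkfc level of the OMT intestines, 9.10, so leaving it out widens the difference by construction. The contrast between tissues for Tkfc was -1.78 ± 0.23 (adjusted p = 9.53e-05), beside -1.80 for Khk.

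Of the 6 other hexose kinases tested in each tissue, Hkdc1, a gene related to the hexokinases, fell in intestine. Hkdc1 was at 9.98, 9.48, 9.74, 9.74 and 9.70 in OMT and 10.34, 10.58, 10.37 and 10.38 in YMT, a difference of -0.69 ± 0.10 (adjusted p = 0.00716). The groups did not overlap, as with Hk2. Hk1, the widely expressed hexokinase, differed by -0.15 ± 0.09 in intestine (adjusted p = 0.354) and -0.17 ± 0.09 in liver (adjusted p = 0.219), neither past the threshold. In liver Adpgk, a sugar kinase that uses ADP, rose by 0.39 ± 0.07 (adjusted p = 0.00455) and Galk2, a kinase of N-acetylgalactosamine, fell by 0.31 ± 0.08 (adjusted p = 0.0232). The Galk2 call was lost without OMT replicate 5, without YMT replicate 2 or 4 and without OMT replicates 1 and 2 together (adjusted p = 0.0781).

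Of 12 other hexose transporters tested in intestine, Slc2a9, known as a urate carrier, fell. Its levels were 7.21, 7.12, 7.17, 7.16 and 6.86 in OMT and 7.69, 8.03, 7.72 and 7.65 in YMT, a difference of -0.67 ± 0.10 (adjusted p = 0.00862). The other 11 did not pass. Slc2a1, the carrier GLUT1 of most cells, had levels of 5.99, 5.99, 6.24, 6.72 and 6.71 in OMT intestines and 7.41, 6.96, 6.69 and 7.14 in YMT intestines. The difference of -0.72 ± 0.20 did not pass (adjusted p = 0.0662). By limma it passed with all 18 arrays in the fit (adjusted p = 0.0196) and with the filter at the 75th percentile (adjusted p = 0.0474). It also passed without OMT replicate 4, the highest of the OMT arrays (adjusted p = 0.0462), and at the threshold of 0.10. In liver, where 6 other transporters were tested, Slc2a1 was the 1 that passed and it rose by 0.79 ± 0.16 (adjusted p = 0.00694), from 6.30 ± 0.25 in YMT to 7.09 ± 0.31 in OMT. The contrast between tissues for Slc2a1 was 1.51 ± 0.27 (adjusted p = 0.00154). Slc2a1 has another, dimmer probe set, which differed by -0.08 in intestine and -0.01 in liver.

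Further down glycolysis, 0 of 13 tested genes passed in intestine by limma, and 3 had an unadjusted p under 0.05. In liver Pklr, the liver-type pyruvate kinase, fell and Pfkfb2 and Tpi1 rose, of 13 tested. There 9 of the 13 had an unadjusted p under 0.05. Over the alternatives the number called lower ranged from 1 to 4 and the number called higher from 0 to 3. Pklr was at 8.20, 8.18, 8.31, 8.19 and 8.31 in OMT and 10.91, 10.47, 9.99 and 10.52 in YMT livers, a difference of -2.23 ± 0.15 (adjusted p = 8.92e-06). The OMT livers were nearly equal to each other. Pfkfb2, an enzyme that sets the level of a phosphofructokinase activator, rose by 0.66 ± 0.16 (adjusted p = 0.0137), and Tpi1, triose phosphate isomerase, by 0.37 ± 0.09 (adjusted p = 0.0140). The Pfkfb2 call was lost without OMT replicates 1 and 2 (0.53, adjusted p = 0.0641). In intestine Pklr differed by -0.13 ± 0.13 (adjusted p = 0.599).

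Among the 7 genes of glucose release, G6pc, the phosphatase that turns glucose 6-phosphate back into glucose, moved in opposite directions. Its contrast between tissues was -4.97 ± 0.48 (adjusted p = 3.56e-06). In liver it lay at 6.88, 6.85, 8.17, 7.69 and 8.12 in OMT and 10.79, 10.75, 10.39 and 11.21 in YMT, a difference of -3.24 ± 0.29 (adjusted p = 6.55e-05). In intestine it lay at 8.29, 7.07, 8.21, 8.94 and 7.74 in OMT and 6.02, 6.83, 6.63 and 5.83 in YMT, a difference of 1.72 ± 0.34 (adjusted p = 0.0259). The intestine call was lost without OMT replicate 1 or 3 and without YMT replicate 1, 2 or 4, with the highest adjusted p (0.0736, at 1.56) without YMT replicate 4. YMT replicates 1 and 4 had the lowest G6pc levels and, of the YMT arrays, also the lowest jejunum and duodenum marker means, 6.07 and 7.44. The part of the segment sampled was not tested. Pck1, which makes phosphoenolpyruvate for glucose synthesis, fell in liver by 0.76 ± 0.16 (adjusted p = 0.00749), a call that was lost with all 18 arrays in the fit (adjusted p = 0.0557). Its intestine difference of 1.08 ± 0.33 did not pass (adjusted p = 0.0921). Of the 7 genes of the list in intestine, 1 passed by limma and 6 had an unadjusted p under 0.05, in both directions, with a median difference of 0.40 beside -0.02 over all genes. The number called higher was 3 without OMT replicate 2, 4 with all 18 arrays in the fit and 0 in 5 of the other fits that left out 1 array.

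Of the list of sugar-sensing genes and tissue transcription factors, which also holds factors of cell identity and of low oxygen, 0 of 15 tested passed in intestine by limma, and 4 had an unadjusted p under 0.05. In liver 1 rose and 3 fell of 14 tested. Txnip, a transcript that follows glucose uptake, was at 7.59, 7.54, 7.71, 7.65 and 7.74 in OMT and 9.20, 8.40, 8.17 and 8.62 in YMT livers, a difference of -0.95 ± 0.17 (adjusted p = 0.00317). Mlxipl, which encodes the carbohydrate-responsive factor ChREBP, was at 9.34, 9.23, 8.36, 7.88 and 8.61 in OMT and 9.60, 9.28, 9.23 and 9.57 in YMT. OMT replicates 1 and 2 lay at the level of the YMT livers and the other 3 below it. The Mlxipl difference of -0.74 ± 0.26 did not pass (adjusted p = 0.0760). It was -1.14 (adjusted p = 0.00278 by limma) without those arrays, and leaving out either alone also gave a call. Leaving out the OMT arrays nearest to YMT widens the difference by construction, so these fits lend it no support. Srebf1, a factor of lipid synthesis, fell by 1.78 ± 0.35 (adjusted p = 0.00538), and OMT replicates 1 and 2 were again the highest OMT livers, at 8.31 and 8.47 against 6.79 to 6.93. Without them the Srebf1 difference was -2.39 (adjusted p = 2.96e-06 by limma), again widened by construction. Khk and Pklr did not follow that split, since OMT replicates 1 and 2 lay within the range of the other OMT livers or within 0.03 of it. Hif1a fell by 0.35 ± 0.10 (adjusted p = 0.0247), a call that was lost in 7 of 19 alternatives, among them those without OMT replicate 3 or 5 or YMT replicate 1 or 4. Hnf4a, a factor of hepatocyte and enterocyte identity, rose by 0.55 ± 0.11 (adjusted p = 0.00683).

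Of the brush border disaccharidases and the sodium pump subunit listed with them, 0 of 5 passed the limma threshold in intestine, where the disaccharidases act on dietary sugar. Of the 5, 1 had an unadjusted p under 0.05. In liver, 3 were tested. Treh, the trehalase, rose from 4.75 ± 0.17 to 6.72 ± 0.70, a difference of 1.97 ± 0.30 (adjusted p = 0.00124). OMT replicates 1 and 2 had the smallest Treh values among OMT livers, 6.19 and 5.80. Without them the difference was 2.45 (adjusted p = 1.80e-05 by limma), widened by construction. Atp1b1 fell by 0.36 ± 0.08 (adjusted p = 0.0109) and Mgam by 0.30 ± 0.08 (adjusted p = 0.0301), and the Mgam call was lost in 9 of 19 alternatives, among them 7 of the 9 that left out 1 array.

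**Figure D4:**
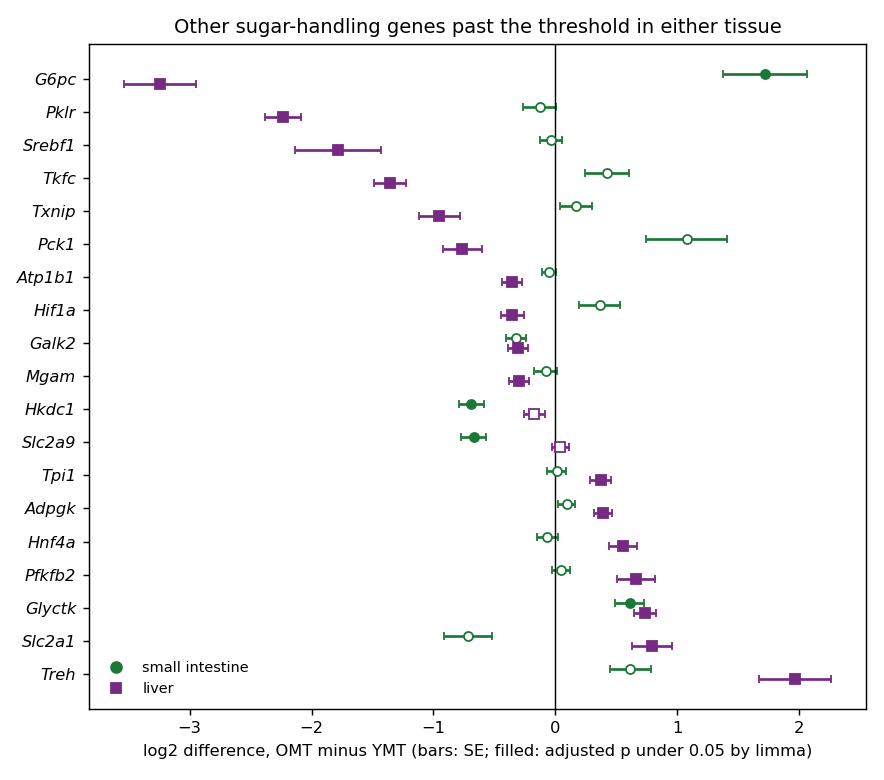
Difference in log2 level, OMT minus YMT, with SE, of the listed sugar-handling genes that passed in either tissue (circles, small intestine; squares, liver; filled, adjusted p under 0.05 by limma). In liver the differences run from -3.24 (G6pc) to 1.97 (Treh), and in intestine the filled circles are G6pc, Glyctk, Hkdc1 and Slc2a9.

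Other cell type markers in liver are given beside the Khk and Slc2a2 results. The mean over 8 hepatocyte markers was 11.95 to 12.05 in OMT and 11.95 to 12.02 in YMT. Of 6 markers of hepatocytes near the central vein, Cyp2e1 rose (0.24) and Glul (-0.34) and Cyp1a2 (-1.88) fell, with means of 9.30 to 9.59 in OMT and 9.59 to 9.80 in YMT. Of 4 markers of hepatocytes near the portal vein, Cyp2f2 fell (-0.70), with means of 9.51 to 9.95 in OMT and 9.86 to 9.97 in YMT. Endothelial markers fell for 4 of 5, with means of 6.91 to 7.24 in OMT and 7.43 to 7.75 in YMT, and stellate cell and fibroblast markers for 3 of 5, with means of 6.49 to 6.68 and 6.76 to 7.14. Kupffer cell and macrophage markers fell for 1 of 5. Their mean was 6.89 and 6.93 in OMT replicates 1 and 2, 6.58 to 6.64 in the other OMT livers and 6.85 to 7.00 in YMT. Smooth muscle markers fell for 2 of 6, with means of 4.76 to 4.97 in OMT and 4.96 to 5.27 in YMT. Cholangiocyte markers fell for 1 of 3 tested, with means over the list of 4.46 to 4.64 and 4.43 to 4.65. The part of these cells in the liver results was not tested.

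For each member that passed, the genes with the most similar profile over the 9 arrays of the tissue were found by the root mean square difference of levels centred on their mean. For Khk in liver they were Acsl5, which activates long-chain fatty acids (0.17), Pygl, the liver glycogen phosphorylase (0.18), and Ces2e, a carboxylesterase (0.18). Their own differences were -1.35 ± 0.13, -1.55 ± 0.14 and -1.74 ± 0.12. For Slc2a2 in liver they were the myosins Myo10 (0.07) and Myo6 (0.07) and Ago1 (0.09), an Argonaute protein, with differences of -0.64 ± 0.13, -0.75 ± 0.12 and -0.59 ± 0.13. For Hk2 in intestine they were Mlkl, an executor of necroptosis (0.27), Cxcl9, an interferon-induced chemokine (0.29), and Lilrb4a, a receptor of immune cells (0.34). Mlkl fell by 1.46 ± 0.16 and Cxcl9 fell by 1.85 ± 0.19, while the Lilrb4a difference of -1.23 ± 0.31 did not pass (adjusted p = 0.0547). Lilrb4a had an OMT mean of 3.99, below the array medians of 4.39 to 4.51, and entered the test through its YMT mean of 5.21, so the size of its difference is uncertain. The likeness is over 9 arrays that hold the group difference itself.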

How the data were processed

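RNA of 18 samples was hybridised to 1 Affymetrix whole-transcript array each, from 250 ng of total RNA, per the labels' protocols. The authors deposited log2 values, for which the submitters' processing notes name RMA and Affymetrix Expression Console without a version. RMA normalizes quantiles and narrows differences at low levels. Base 2 was inferred from their range. Of 41345 probe sets, 23521 had 1 gene symbol, 1814 had several and 16010 are unnamed here. For each gene the probe set with the highest mean stood in, and the filter asked for 4 or more of 9 arrays above the array median. No arrays held identical values.

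Groups came from the sample titles. OMT was compared with YMT in each tissue by limma 3.58.1 (lmFit, eBayes) in R 4.3.3, two-sided, adjusted by Benjamini-Hochberg. Members below the filter were compared by exact permutation, with Benjamini-Hochberg over the members so tested. The contrast between tissues used all arrays in 4 groups. The code was tested on simulated data. Promoter sequences were those of RefSeq, GRCm38.p6, and all 6 members matched. Genes were named by rule: the members, up to 3 genes per list and direction by smallest p, Tkfc, Hk1, Hkdc1, Mlxipl, Txnip, Slc2a1 and Pklr whatever their p, and the 3 nearest genes of each member past the threshold. Marker genes past the threshold and Pck1 in intestine were named after their values were seen. The members, the lists and the omission of OMT replicates 1 and 2 were chosen with earlier results of these data known.

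Alternatives were no or a stricter filter (75th percentile), trend and robust eBayes, all 18 arrays in the fit, quantile normalization or median centring, the mean over probe sets, the replicate block, leaving out each array, OMT replicates 1 and 2 left out, and a threshold of 0.10.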

Additional observations from a re-analysis of the deposited data

Results flagged for a closer look

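Liver and intestine differed in their response for 3 of the 4 members testable in both, by limma's test of the contrast itself. The contrast is the liver difference minus the intestine difference. Of all 11965 genes so tested, 4.04% were called lower and 7.91% higher. The contrast was -1.27 for Slc2a2, where the 4 YMT and 5 OMT livers did not overlap and the intestines did. It was -1.80 for Khk, for which the same held. It was 1.45 for Hk2, where the intestines did not overlap and the livers did. The Slc2a2 call was lost in 6 of the 18 fits that left out 1 array. All OMT arrays lay below all YMT arrays for 8.51% of the genes tested in liver and 6.84% in intestine.

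Among the 24 groups of a member, tissue and donor age, 2 held an array far from the rest of its group by Dixon's criterion, which chance meets in about 1 in 20 groups. Slc2a2 was 11.23 in liver YMT replicate 1, where the other YMT livers had 11.06 to 11.08. Without that array the Slc2a2 difference in liver was -0.63 (adjusted p = 0.0148 by limma). Slc5a1 was 2.93 in liver YMT replicate 3, where the other YMT livers had 3.11 to 3.14, all below the array medians.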

How the results depend on the processing

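The calls of Khk in liver and Hk2 in intestine kept their direction and side of the threshold in all 19 alternatives each, and that of Slc2a2 in liver in 18 of 19. The exception was the fit of all 18 arrays (-0.67, adjusted p = 0.0780). Leaving out OMT replicates 1 and 2 turned the sign of differences that had not passed: in intestine Slc5a1 (0.019), Slc2a5 (0.085) and Pklr (0.067), and in liver Slc2a5 (0.055) and Gckr (-0.22). With 1 array left out, the Gckr difference in liver ranged from -0.065 to 0.20. Slc5a1 in liver, below the filter, was -0.028 after quantile normalization and -0.027 after centring. For the contrast between tissues, leaving out 1 array gave -1.46 to -0.92 for Slc2a2, with the call lost without intestine OMT 3 or YMT 4, or liver OMT 5 or YMT 1, 2 or 4, and -0.24 to 0.073 for Slc2a5.

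Genes higher and lower in the OMT intestine numbered 138 and 410, and 78 and 232 with no filter, 365 and 1080 with all 18 arrays, 382 and 949 at a threshold of 0.10, and 78 and 156 without OMT replicates 1 and 2. Quantile normalization gave 211 higher, and leaving out 1 array 37 to 155 higher and 113 to 481 lower, the fewest without YMT replicate 2. For the contrast, leaving out 1 array gave 625 to 1161 higher, and leaving out OMT replicates 1 and 2 gave 560.

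Whether replicate numbers shared between groups pair the samples is not settled here, and the main fits took the arrays as unpaired. Deviations of same-numbered OMT and YMT arrays correlated at -0.06 to 0.32 in intestine and -0.18 to 0.09 in liver. With so few pairs, these values cannot exclude a pairing. With the replicate block, Hk2 in intestine was -1.76 (adjusted p = 0.00738), and Khk and Slc2a2 in liver were -1.43 (adjusted p = 0.00320) and -0.66 (adjusted p = 0.0175). The block gave 740 genes higher and 719 lower in liver. Of the other genes named, it ended the calls of G6pc and Glyctk in intestine and of Pck1, Tpi1, Hif1a, Pfkfb2 and Galk2 in liver. As a random block for the contrast it kept the calls of Khk (-1.80), Slc2a2 (-1.27) and Hk2 (1.45).

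Testing every probe set of a member by itself is the same fit, as each has 1. The number of arrays limits precision, and Slc5a1 in liver and Gckr in intestine lay below the array medians, where RMA narrows differences.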
